A study of Mus musculus with 4 samples.

Results

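The semaphorin, plexin, ephrin, Eph, Slit and Robo genes are families of secreted or membrane-bound guidance cues and of the receptors that read them. They were taken from the deposited tables by gene symbol, which gave 58 genes of 21878 rows. Sequencing read their mRNA in 4 libraries of mouse liver progenitor-like cells, a dividing cell state reached by culturing adult liver cells in transition and expansion media. HepLPC libraries (n = 2) came from hepatocyte-derived cells and NPC_LPC libraries (n = 2) from cells derived from the non-parenchymal fraction, which in liver holds the endothelial, immune, stellate and bile duct cells. All mice were labelled C57BL/6 and 6 to 8 weeks old, and the protocol gives 8 weeks. It lists tdTomato mice given AAV8-TBG-Cre, a virus whose TBG promoter is active in hepatocytes, and AlbCreERT/R26GFP mice, in which Cre is driven from the albumin gene, in that order for hepatocytes and for non-parenchymal cells. If each line served only 1 preparation, mouse line and virus follow the group, and their effects and that of cell origin cannot be told apart. The cell type label of HepLPC mentions both fractions, so the groups were taken from the titles. Whether the replicates are separate animals or cultures is not labelled, and p-values here measure only the spread between these libraries.

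Semaphorins are read by plexins, which act on small GTPases, and secreted class 3 semaphorins usually need a neuropilin as co-receptor. Ephrins are held on the cell surface, ephrin-A by a lipid anchor and ephrin-B by a membrane-spanning segment, and bind the Eph receptor tyrosine kinases of a neighbouring cell, so that signals can pass in both directions. Slits are secreted proteins that bind Robo receptors. The families are best known from growing axons, and in epithelia and vessels they take part in cell contact, repulsion and boundary formation.

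Total counts ran from 17575998 to 20625957 per library, and the guidance genes together held 3098 and 3084 CPM (counts scaled to library size with TMM factors) in HepLPC replicates 1 and 2 and 3235 and 4004 CPM in those of NPC_LPC. Among the marker genes of other cell types, 8 of 11 endothelial markers had at most 5 counts in any library, and Tie1, Erg and Clec4g had none. The endothelial list summed to 6.20 to 7.44 CPM in HepLPC against 2.41 to 4.31 in NPC_LPC. Stellate and myofibroblast markers summed to at most 20.2 CPM and Schwann and neuronal markers to at most 16.2 CPM in any library, with Lrat, Sox10 and Rbfox3 at no count. Of these lists DESeq2 called Reln and Snap25 higher in HepLPC, and edgeR called 0. The mesothelial list, most of it Msln, was at 202 and 822 CPM in HepLPC against 612 and 232 CPM in NPC_LPC, and so did not follow the groups. Leukocyte and Kupffer markers, most of them Cd14 and Cd68, summed to 115 and 54.1 CPM in HepLPC against 235 and 72.9 CPM in NPC_LPC, and Clec4f, Tyrobp and Cd3e had no count. The bile duct (cholangiocyte) list summed to 4774 and 2215 CPM in HepLPC against 9506 and 4785 CPM in NPC_LPC, most of it Spp1, and its members differed in both directions. The bile duct keratin Krt19 was at 1434 and 884.5 CPM in HepLPC against 110.9 and 274.5 CPM in NPC_LPC and Krt7 at 103 and 165.5 against 1.43 and 17.2 CPM. Spp1 was at 3024 and 904 CPM against 8939 and 4201 CPM. DESeq2 called Krt19 higher and Spp1 lower in HepLPC, where it called 5.35% and 6.24% of all genes. EdgeR called 0 of the 7 tested. At an unadjusted edgeR p under 0.05, 2 were higher and 2 lower, against 10.4% and 11.5% of all tested genes. Cell cycle markers summed to 2137 and 1257 CPM in HepLPC against 761 and 1434 CPM in NPC_LPC. All 6 had fold changes above 0, where 49.8% of all tested genes did. Ccnb1, Ccna2, Cdk1 and Plk1 had separate groups and an unadjusted edgeR p under 0.05. Of all tested genes, 27.9% were separate and higher in HepLPC, and 10.4% were higher at that p. DESeq2 called Ccnb1, where it called 5.35% of all genes higher, and edgeR called 0. Hepatocyte markers were low apart from Hnf4a, a hepatocyte transcription factor, at 235 and 249 CPM in HepLPC against 27.4 and 49.8 CPM in NPC_LPC. Hnf4a, Apoa1 and Ttr were called higher in HepLPC by DESeq2, and edgeR called 0 of this list. The part of these markers in the results below was not tested. Fewer cells of a type and less RNA per cell cannot be told apart in these bulk libraries.

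Both cultures used a similar small set of guidance genes at high level. By FPKM, the authors' value scaled by transcript length and depth, 9 genes had a mean of at least 10 over the 4 libraries, 18 lay between 1 and 10, 25 lay under 1 and 6 had no count anywhere. The 9 were Sema3c, Plxnb2, Epha2, Epha4, Plxna1, Sema3e, Ephb4, Efnb2 and Efna1, in falling order. The first 3, at 107, 82.6 and 78.3 FPKM, stood well above Epha4 at 35.8 FPKM. Their ranges over the 4 libraries (54.0 to 168, 71.9 to 106 and 50.1 to 98.2 FPKM) overlapped, so their order is not resolved. Of the 58 genes, 43 passed the filter on low counts and were tested. The 15 not tested include the 6 without a count (Epha3, Epha8, Epha10, Ephb1, Robo4 and Sema5b) and Epha1, Epha6, Plxnc1, Robo2, Sema3d, Sema3g, Sema7a, Slit1 and Slit3, with at most 32 counts in a library. A count of 0 allows a level of up to 0.149 to 0.169 CPM (3 counts, by library; counting error only).

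**Figure D1:**
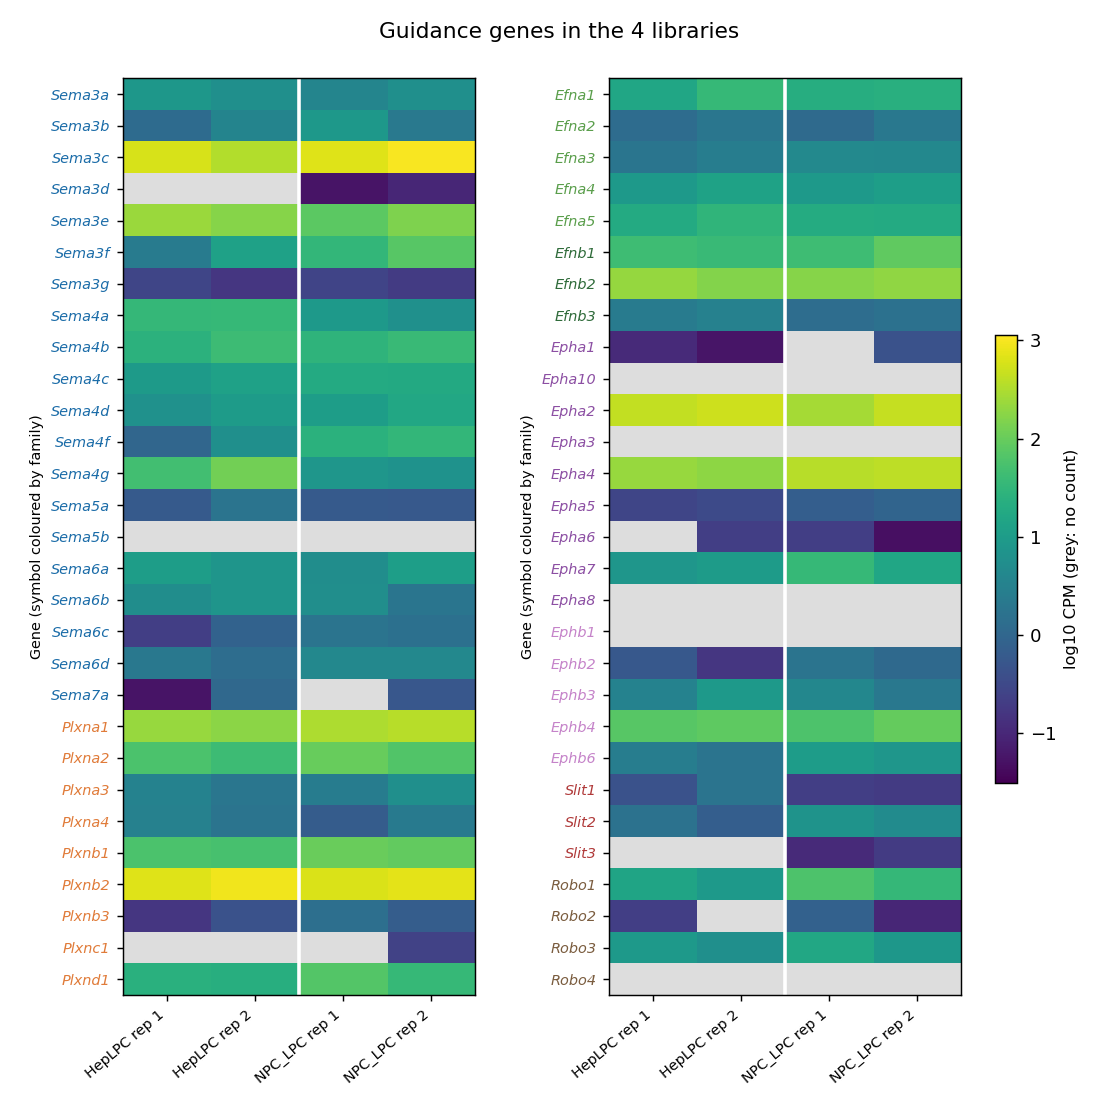
Level of each of the 58 guidance genes (rows, symbols coloured by family) in each library (columns), as log10 CPM from dark to bright, with grey for no count. Sema3c, Plxnb2 and Epha2 are bright in all 4 libraries, and the 6 genes without a count are grey across.

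The edgeR quasi-likelihood test, fitted over 12332 genes with Benjamini-Hochberg adjustment, called 0 of the 43 tested guidance genes, where it called 0.43% of all tested genes (0.227% higher and 0.203% lower in HepLPC). The smallest adjusted p of a member was 0.0598. At an unadjusted p under 0.05 the same test had 2 members higher in HepLPC and 10 lower, 27.9% of the 43 against 21.9% of all tested genes. By direction the background was 10.4% higher and 11.5% lower. DESeq2 called 2 members higher and 7 lower, 9 of the 47 to which it gave an adjusted p, against 11.6% of all such genes (5.35% higher and 6.24% lower). Limma-voom called 0 of 43, where it called 0.0405% of all tested genes. Every member described below was called by DESeq2, by some edgeR alternatives, or by neither.

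Tested members lay lower in HepLPC more often than higher. Fitted fold changes were below 0 for 25 of the 43 (58.1%) and above 0 for 18, where 50.2% of all tested genes were below and 49.8% above, and the median log2 fold change was -0.73 against -0.0030. The groups did not overlap for 27 members (62.8%, against 56.4% of all tested genes). Both HepLPC libraries lay below both NPC_LPC libraries for 21 members (48.8%, against 28.6% of all tested genes), and above both for 6 (14.0%, against 27.9%). The median moved with the libraries and with the scale. Leaving out each library in turn gave -0.25 to -0.55, over 44 to 46 tested members. With every library kept, on log2(FPKM + 1) over every row with an FPKM above 0, it was -0.024. That fit took in 52 members, 25 of them with a mean FPKM under 1.

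**Figure D2:**
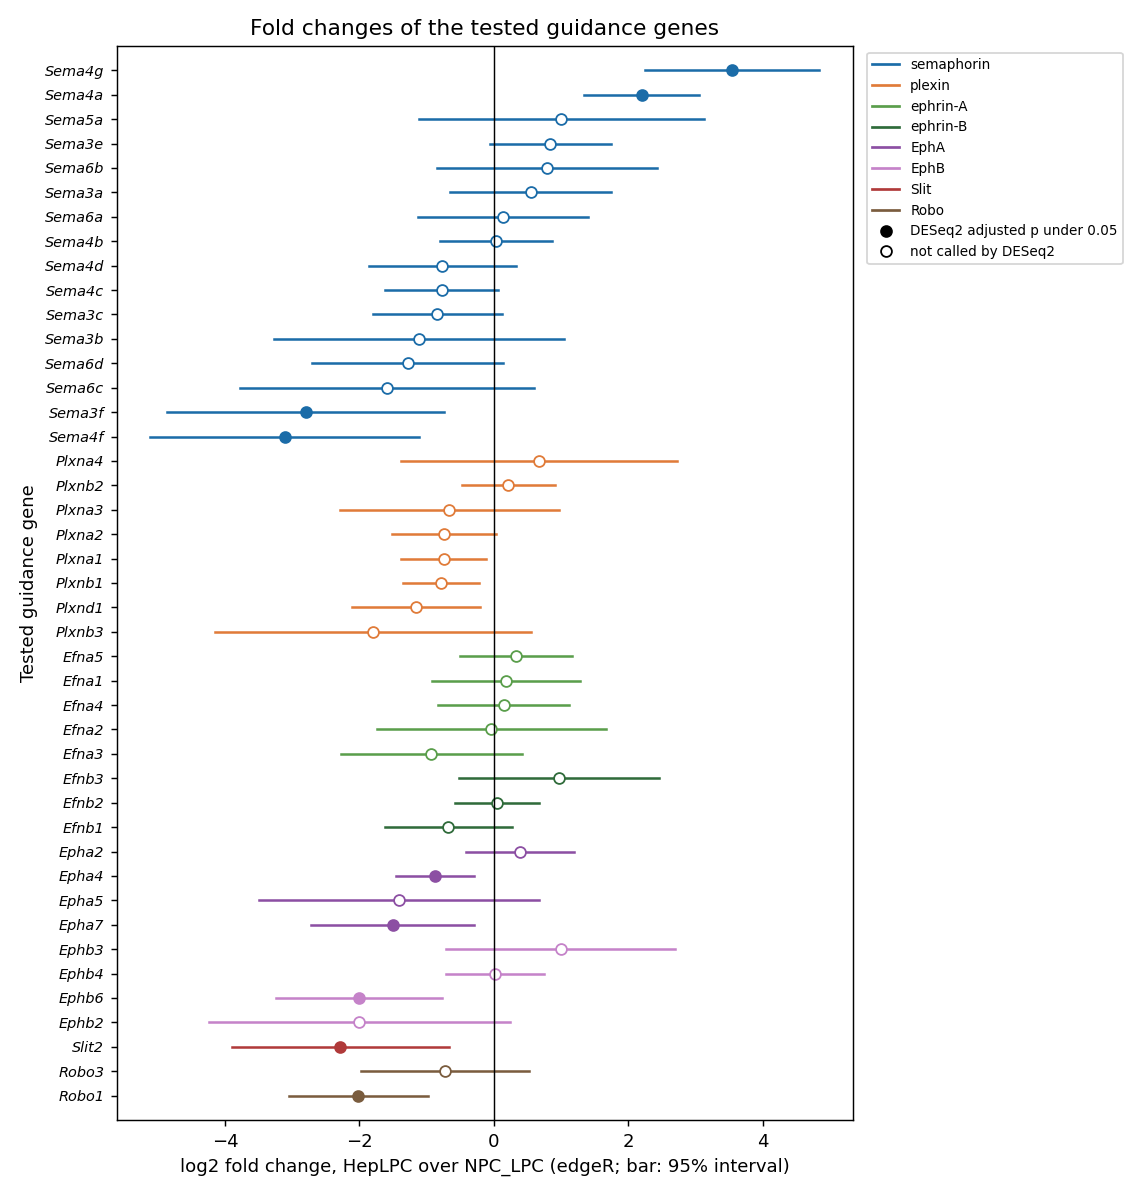
Log2 fold change of each of the 43 tested guidance genes, HepLPC over NPC_LPC, with the 95% interval of the edgeR fit, coloured by family; filled points passed DESeq2. Sema4g and Sema4a stand farthest to the right at 3.54 and 2.20, Sema4f and Sema3f farthest to the left at -3.11 and -2.80.

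Among the semaphorins, the membrane-bound class 4 showed opposite differences between close relatives. Sema4g was at 46.3 CPM in replicate 1 and 121 CPM in replicate 2 of HepLPC, against 7.68 and 6.63 CPM in NPC_LPC. Both HepLPC libraries were far above both NPC_LPC libraries, although they differed from each other. Its mean was 11.7-fold higher in HepLPC, with a log2 fold change of 3.54 (95% interval 2.25 to 4.84; edgeR adjusted p = 0.0598, DESeq2 adjusted p = 5.73e-10). Without HepLPC replicate 2 the log2 fold change was 2.69, and over all alternatives it ran from 2.43 to 4.09. Sema4a, a class 4 member also known from immune cells, was at 33.7 and 35.5 CPM in HepLPC against 8.996 and 6.09 CPM in NPC_LPC. The replicates of each group were close and the groups did not overlap. The difference was 4.59-fold (log2 fold change 2.20, SE 0.35; edgeR adjusted p = 0.0656, DESeq2 adjusted p = 2.8e-06). Without NPC_LPC replicate 1 edgeR called both genes, at adjusted p of 0.0452 and 0.0498, where it called 2.95% of all genes tested. Over the 15 alternatives the adjusted p ran from 5.73e-10 to 0.184 for Sema4g and from 2.8e-06 to 0.204 for Sema4a.

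Sema4f, a class 4 member described in neurons, was at 0.9996 and 5.745 CPM in HepLPC against 25.8 and 32.5 CPM in NPC_LPC. The NPC_LPC replicates were close, while those of HepLPC lay far apart and were both low. Its mean was 8.65-fold higher in NPC_LPC (fitted log2 fold change -3.11, SE 0.81; edgeR adjusted p = 0.119, DESeq2 adjusted p = 5.02e-04, range 5.02e-04 to 0.1905 over 15 alternatives). Over those alternatives its log2 fold change ran from -4.86 (without HepLPC replicate 2) to -1.98, and it was -2.33 without HepLPC replicate 1. Sema4c, a ligand of plexin-B2, was at 9.44 and 12.6 CPM in HepLPC against 19.1 and 18.6 CPM in NPC_LPC, a smaller difference in the same direction that neither test called (log2 fold change -0.78, SE 0.34). Sema4d, a ligand of plexin-B1, had a log2 fold change of -0.77 (SE 0.44). Sema4b, the most abundant class 4 gene by mean FPKM, was at 26.7 and 42.1 CPM in HepLPC against 29.1 and 38.1 CPM in NPC_LPC. Its groups overlapped, and the 95% interval of its log2 fold change ran from -0.80 to 0.87.

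Per transcript length, the class 4 sum overlapped between the groups while each of the 6 shares was separate between them. The 6 class 4 genes summed to 15.9 and 31.0 FPKM in HepLPC and 16.5 and 20.1 FPKM in NPC_LPC, so the groups overlapped. Sema4g made up 31.4% and 46.2% of that sum in HepLPC and 4.88% and 3.71% in NPC_LPC. Sema4f made up 0.954% and 3.42% in HepLPC and 27.3% and 28.3% in NPC_LPC. The share of Sema4a was 16.6% and 10.04% against 3.99% and 2.34%. Sema4c held 8.88% and 6.402% against 17.3% and 15.1%, Sema4d 4.86% and 4.16% against 8.01% and 10.6%, and Sema4b 37.2% and 29.8% against 38.5% and 40.1%. These shares describe the same libraries as the fold changes and are no separate evidence.

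**Figure D3:**
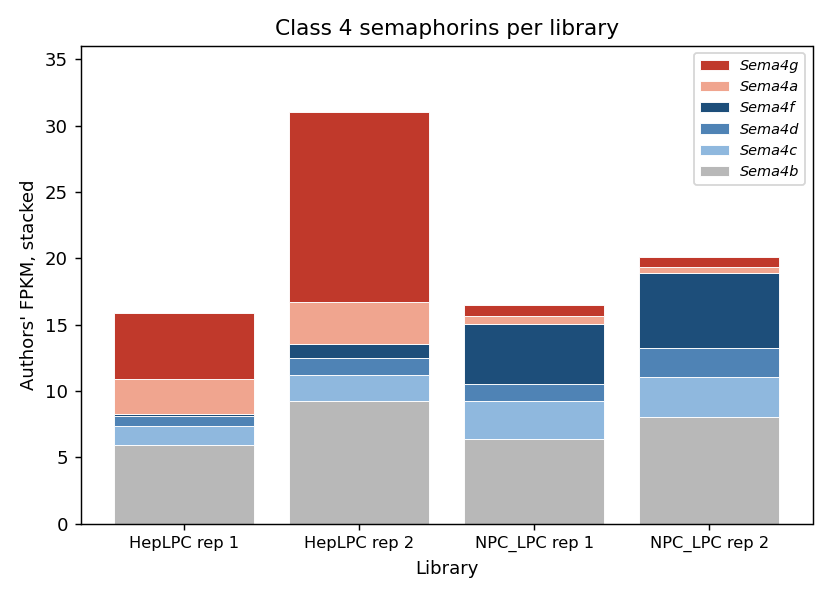
The authors' FPKM of the 6 class 4 semaphorin genes, stacked for each library (1 bar per library, no error bars). Red Sema4g and Sema4a fill much of the HepLPC bars and little of the NPC_LPC bars, where dark blue Sema4f takes 27.3% and 28.3%, and grey Sema4b takes 29.8% to 40.1%.

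The start regions of the 3 class 4 genes that DESeq2 called are shown because the genes are relatives with opposite differences. They are RefSeq windows on GRCm38.p6, 250 bases before to 50 after a transcript start, printed on the gene's strand. For Sema4a, with 4 listed starts, the most upstream is shown. For Sema4g 1 start was listed, and its window lies downstream of the RefSeq gene start at 44988743. Which start was in use was not measured. Capitals mark matches on either strand to the GC box GGGCGG, the promoter element CCAAT, the TATA box TATAAA, the E-box CACCTG bound by Snail and Zeb factors, the AP-1 motif TGANTCA, the HNF4 motif CAAAGTCCA and the HNF1 motif.
Sema4g (chr19:44989094-44989393, plus strand): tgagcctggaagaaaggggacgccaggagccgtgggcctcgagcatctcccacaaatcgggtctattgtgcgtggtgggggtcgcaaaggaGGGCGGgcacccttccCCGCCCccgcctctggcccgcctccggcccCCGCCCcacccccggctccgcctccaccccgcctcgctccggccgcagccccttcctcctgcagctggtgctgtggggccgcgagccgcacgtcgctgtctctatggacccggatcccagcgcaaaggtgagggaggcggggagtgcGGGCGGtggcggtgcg
Sema4a (chr3:88461133-88461432, minus strand): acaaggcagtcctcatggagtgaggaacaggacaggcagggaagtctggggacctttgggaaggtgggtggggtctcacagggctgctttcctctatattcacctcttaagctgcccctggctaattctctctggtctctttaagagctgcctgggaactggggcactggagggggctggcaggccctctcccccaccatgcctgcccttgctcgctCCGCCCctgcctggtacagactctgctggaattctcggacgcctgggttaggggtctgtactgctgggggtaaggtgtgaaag
Sema4f (chr6:82939720-82940019, minus strand): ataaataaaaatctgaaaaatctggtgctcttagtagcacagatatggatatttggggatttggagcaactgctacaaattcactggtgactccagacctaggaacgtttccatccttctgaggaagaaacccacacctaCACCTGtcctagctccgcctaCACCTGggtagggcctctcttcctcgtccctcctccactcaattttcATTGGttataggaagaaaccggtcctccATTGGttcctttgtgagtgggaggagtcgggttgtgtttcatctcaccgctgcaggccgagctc
The Sema4g window held 4 GC boxes and 30 CpG dinucleotides, that of Sema4a 1 GC box and 4 CpG, and that of Sema4f 7 CpG, 2 CACCTG and 2 CCAAT matches. Of the 32851 windows listed for all genes, 35.7% held a GC box, 37.4% CCAAT, 13.6% TATAAA, 20.2% CACCTG, 7.81% TGANTCA, 0.475% CAAAGTCCA and 0.399% the HNF1 motif. Windows were listed for 51 of the 58 members (67 windows). Of these 67, 70.1% held a GC box, 31.3% CCAAT, 2.99% TATAAA, 14.9% CACCTG, 4.48% TGANTCA and 0 the HNF4 or HNF1 letters, and the median CpG count was 18 against 7 in all windows. A match is a string of letters, not a bound site.

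Class 3 semaphorins are secreted. Sema3c, the most abundant guidance transcript per length, was at 601 and 334 CPM in HepLPC against 673 and 1000.5 CPM in NPC_LPC. The groups did not overlap but the replicates of each lay far apart, and the test did not call it (log2 fold change -0.84, SE 0.39, edgeR adjusted p = 0.272). Sema3e, which binds plexin-D1 without a neuropilin, was at 235 and 170 CPM in HepLPC against 79.9 and 146 CPM in NPC_LPC, which gave a log2 fold change of 0.84 (SE 0.36, edgeR adjusted p = 0.252). The groups were separate by a narrow margin. Both genes lie on chromosome 5, Sema3e at 14025276 to 14256689 and Sema3c at 17574816 to 17730268, as do Sema3a and Sema3d. The fitted values of Sema3c and Sema3e had opposite signs, but the 95% interval of each held 0 and neither test called them. Sema3a, the classical repellent that acts through Nrp1, was at 8.22 and 5.86 CPM in HepLPC against 3.78 and 5.84 CPM in NPC_LPC, and its 95% interval (-0.66 to 1.75) held 0.

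Sema3f, a ligand of Nrp2, showed the largest difference of this class. It was at 2.44 and 12.8 CPM in HepLPC against 33.1 and 73.0 CPM in NPC_LPC. Both NPC_LPC libraries exceeded both HepLPC libraries, with a wide gap between replicates on each side. The mean was 6.96-fold higher in NPC_LPC (fitted log2 fold change -2.80, SE 0.83; edgeR adjusted p = 0.148, DESeq2 adjusted p = 0.00232, range 0.00232 to 0.289 over 15 alternatives). Over the alternatives its log2 fold change ran from -4.44 (without HepLPC replicate 2) to -1.68. It was -2.03 without HepLPC replicate 1 and -2.12 without NPC_LPC replicate 2. Its neighbour on chromosome 9, Sema3b, was at 1.22 and 3.60 CPM in HepLPC against 8.28 and 2.18 CPM in NPC_LPC, which overlapped. Sema3d and Sema3g stayed at or below 5 counts in each library. The 4 class 6 genes, membrane-bound ligands of A-type plexins, were each at or below 11.3 CPM and none was called. Of classes 5 and 7, Sema5a and Sema7a reached at most 1.80 and 1.07 CPM.

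The neuropilins, co-receptors of class 3 semaphorins and not members by symbol, were lower in HepLPC. Nrp2 (chromosome 1, 62703317 to 62818692) was at 15.5 and 23.1 CPM in HepLPC against 173 and 134 CPM in NPC_LPC. The groups were far apart and the replicates close. Nrp2 fell 7.92-fold in HepLPC and passed the edgeR test over all genes (log2 fold change -2.98, SE 0.32, adjusted p = 0.0419). The call was lost without HepLPC replicate 1 (adjusted p = 0.161) or 2 (0.184), by limma-voom (0.0646) and on log2(FPKM + 1) over every row (0.131), in a range of 8.66e-14 to 0.184 over 15 alternatives. Nrp1 was at 65.5 and 70.6 CPM in HepLPC against 108 and 188 CPM in NPC_LPC, which gave a log2 fold change of -1.12 (SE 0.32; edgeR adjusted p = 0.142, DESeq2 adjusted p = 0.0338, range 0.0338 to 0.399).

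Plxnb2, a receptor for class 4 semaphorins, dominated the plexins in every library. It held 69.2% and 79.3% of the plexin FPKM in HepLPC and 57.99% and 60.9% in NPC_LPC. Its level, 663 and 903 CPM against 631 and 719 CPM, overlapped between groups, and the 95% interval of its log2 fold change ran from -0.48 to 0.91. Plxnb2 lies on chromosome 15, where the median log2 fold change of genes with at least 10 CPM was 0.68, and with the chromosome medians taken out its value was -0.47. Most other tested plexins had fold changes below 0. Plxna1, a class 3 receptor that pairs with neuropilins, was at 226 and 179 CPM in HepLPC against 312 and 366 CPM in NPC_LPC, which gave a log2 fold change of -0.74 (SE 0.26, edgeR adjusted p = 0.181). Plxnb1, the receptor of Sema4d, was at 57.7 and 52.5 CPM against 101 and 89.4 CPM (-0.79, SE 0.23, edgeR adjusted p = 0.142). Both genes had groups that did not overlap. Plxnd1, the receptor of Sema3e and best known from blood vessels, was at 24.5 and 22.4 CPM in HepLPC against 69.2 and 35.1 CPM in NPC_LPC, which gave a log2 fold change of -1.15 (SE 0.38, edgeR adjusted p = 0.175). Endothelial markers, most of their sum Kdr, were at 7.44 and 6.20 CPM in HepLPC against 2.41 and 4.31 CPM in NPC_LPC, and their part in this value was not tested. In all, 6 of 8 tested plexins had fold changes below 0, where 50.2% of all tested genes did. Both HepLPC libraries lay below both NPC_LPC libraries for 5 of the 8, against 28.6% of all tested genes. EdgeR and DESeq2 called 0, and 3 were lower at an unadjusted p under 0.05 by edgeR, against 11.5%. Plxnc1, the receptor of Sema7a, had 5 counts in 1 library and none in the others.

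**Figure D4:**
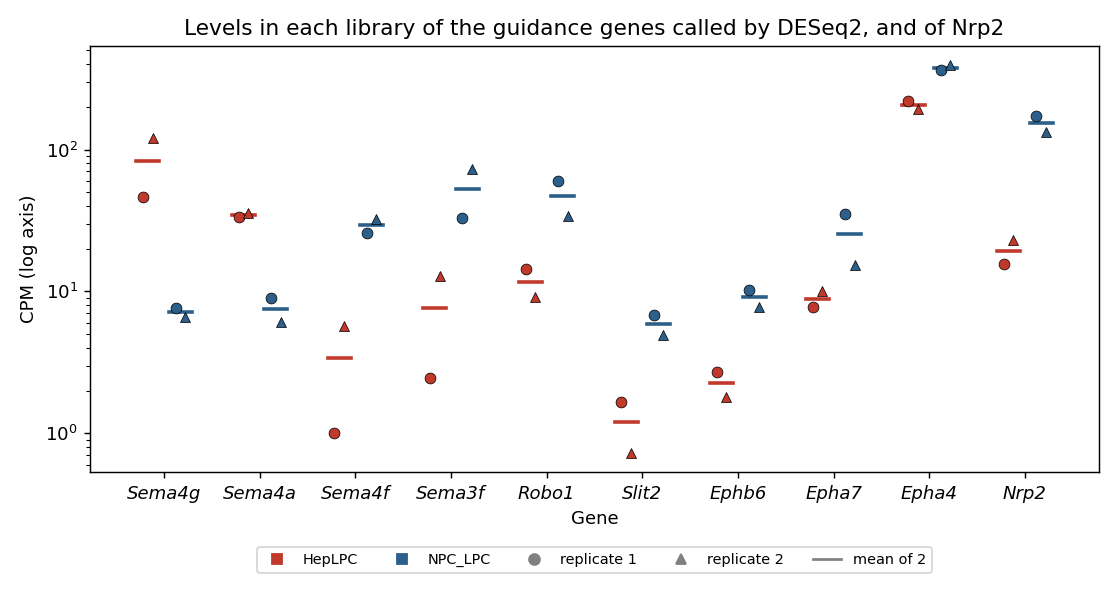
CPM (log axis) in each library of the 9 guidance genes called by DESeq2 and of Nrp2, with red for HepLPC, blue for NPC_LPC, circles and triangles for replicates 1 and 2, and a bar for the mean of 2. In each gene the red and blue points are separate, as they were in 56.4% of all tested genes. The genes shown were picked because a test called them. HepLPC is higher for Sema4g and Sema4a and lower for the other 8.

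Of the 9 EphA receptors, Epha2 and Epha4 held 97.0% to 99.3% of the FPKM in every library. Epha2, a receptor of ephrin-A1 common in epithelial cells, was at 436 and 505 CPM in HepLPC against 270 and 448 CPM in NPC_LPC. The groups overlapped and the 95% interval of the log2 fold change (0.39) ran from -0.41 to 1.19. Epha2 lies on chromosome 4, where the median log2 fold change of genes with at least 10 CPM was -0.57. Over its 15 alternatives the value ran from 0.089 to 0.96, the highest with the chromosome medians taken out. Epha4, which binds both ephrin classes, was at 220 and 192 CPM in HepLPC against 364 and 392.3 CPM in NPC_LPC. Its groups were separate and its replicates close, and the mean was 1.84-fold higher in NPC_LPC (fitted log2 fold change -0.88, SE 0.24; edgeR adjusted p = 0.127, DESeq2 adjusted p = 0.0224, range 0.0224 to 0.322 over 15 alternatives). Epha2 alone made up 74.5% and 80.4% of the EphA sum in HepLPC and 51.9% and 62.1% in NPC_LPC. Epha7 was at 7.72 and 10.1 CPM in HepLPC against 35.3 and 15.3 CPM in NPC_LPC, which gave a log2 fold change of -1.51 (SE 0.49; edgeR adjusted p = 0.169, DESeq2 adjusted p = 0.0433, range 0.0433 to 0.544). Without NPC_LPC replicate 1 the value for Epha7 was -0.77, and with the chromosome medians taken out (-0.57 on its chromosome 4) it was -0.94.

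Ephb4, the receptor of ephrin-B2 that marks veins, carried most of the EphB level, with 77.1% to 91.8% of the FPKM. It was at 74.5 and 84.3 CPM in HepLPC and within 61.1 to 95.6 CPM in NPC_LPC, and its interval (-0.71 to 0.74) was centred near 0. Ephb6, a receptor without kinase activity, was at 2.72 and 1.80 CPM in HepLPC against 10.3 and 7.82 CPM in NPC_LPC. Both NPC_LPC libraries were above both HepLPC libraries, 4.01-fold in the mean (log2 fold change -2.00, SE 0.50; edgeR adjusted p = 0.114, DESeq2 adjusted p = 0.00903, range 0.00903 to 0.2905). Ephb3 ran from 2.13 to 8.96 CPM and Ephb2 from 0.169 to 1.81 CPM, and neither was called.

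No ephrin passed either test. Efnb2, the ligand of Ephb4, was at 210.4 and 164 CPM in HepLPC against 168 and 195 CPM in NPC_LPC, with a 95% interval of -0.58 to 0.67 for the log2 fold change. Efnb1 was at 42.5 and 37.6 CPM against 42.6 and 85.5 CPM, so that replicate 1 of the 2 groups was nearly equal. Efna1, the leading ephrin-A, was at 15.8 and 36.05 CPM in HepLPC against 21.9 and 23.7 CPM in NPC_LPC, and Efna4 at 9.05 and 13.0 against 8.83 and 11.1 CPM. The groups overlapped for both genes, and the HepLPC replicates of Efna1 lay on either side of the NPC_LPC values. Without HepLPC replicate 2 the fitted value of Efna1 was -0.53 in place of 0.19. Of the 8 ephrin genes all were tested, edgeR and DESeq2 called 0, and edgeR had 0 at an unadjusted p under 0.05. Their log2 fold changes ran from -0.93 for Efna3 to 0.97 for Efnb3. The 95% intervals reached -2.28 for Efna3 and 2.46 for Efnb3, so differences of that size were not resolved with 2 libraries a group.

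**Figure D5:**
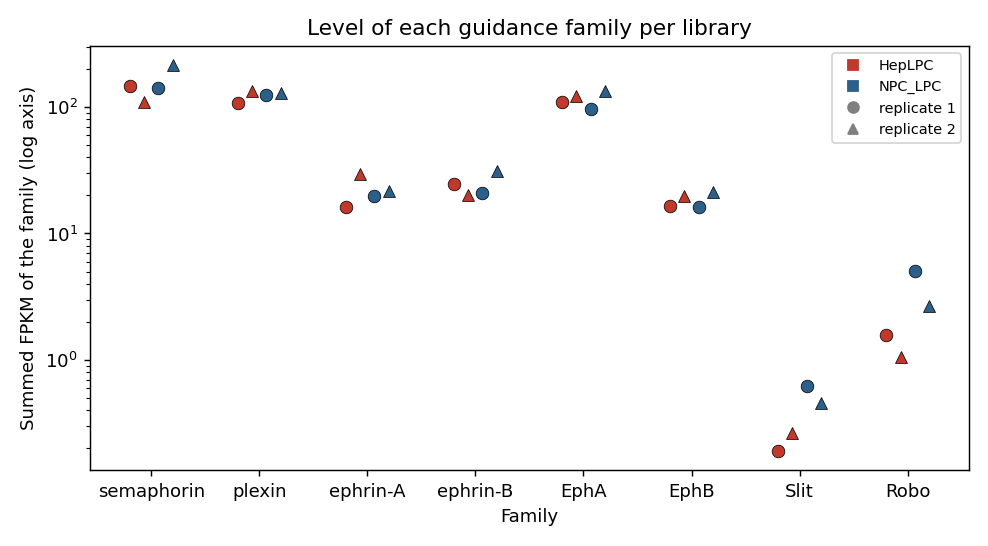
Summed FPKM of each family in each library (log axis; red HepLPC, blue NPC_LPC, circle and triangle for replicates 1 and 2). Semaphorins, plexins and EphA receptors lie between 96.4 and 214 FPKM in all libraries, and the Slit and Robo families are the lowest, with both NPC_LPC points above both HepLPC points.

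Slit and Robo transcripts were scarce, and DESeq2 called Robo1 and Slit2 lower in HepLPC. Robo1, a Slit receptor (chromosome 16, 72027518 to 73047491), was at 14.3 and 9.07 CPM in HepLPC against 60.2 and 34.3 CPM in NPC_LPC. The groups did not overlap, and the mean was 4.05-fold higher in NPC_LPC (fitted log2 fold change -2.02, SE 0.42; edgeR adjusted p = 0.0867, DESeq2 adjusted p = 4.25e-04, range 4.25e-04 to 0.245 over 15 alternatives). Its ligand Slit2 was at 1.67 and 0.732 CPM in HepLPC against 6.86 and 4.90 CPM in NPC_LPC. Ligand and receptor were thus both higher in each NPC_LPC library, Slit2 by 4.90-fold in the mean (log2 fold change -2.29, SE 0.65; edgeR adjusted p = 0.139, DESeq2 adjusted p = 0.0251, range 0.0251 to 0.348 over 13 alternatives). Over those alternatives the log2 fold change of Slit2 ran from -2.98 (without HepLPC replicate 1) to -0.43. Slit2 had 30 and 13 counts in HepLPC. Robo1 made up 50.9% and 51.3% of the Robo FPKM in HepLPC and 71.5% and 76.9% in NPC_LPC. Per length, Slit2 stayed at or below 0.611 FPKM and Robo1 at or below 3.63 FPKM. Robo3, a divergent Robo, was at 8.997 and 5.91 CPM against 16.7 and 8.07 CPM, which overlapped. Slit1 had 8 and 32 counts in HepLPC and 4 and 4 in NPC_LPC and was too low for the edgeR test, while Slit3 and Robo2 had at most 4 and 15 counts. Robo4, the endothelial Robo, had no count in any library. Of the endothelial markers, Kdr had 34 to 122 counts in each library, and the others had at most 14.

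Partner genes of these pathways were taken from 4 lists. Of 21 tested genes that work with semaphorins and plexins, edgeR called 1 lower in HepLPC (Nrp2) and 0 higher. Over all tested genes those shares were 0.203% and 0.227%. DESeq2 called 1 of the list higher and 2 lower, against 5.35% and 6.24% of all genes to which it gave an adjusted p. Fold changes were below 0 for 16 of the 21, against 50.2% of all tested genes, and the median log2 fold change was -0.56. Rnd1, a small GTPase that binds plexins, was at 113 and 219 CPM in HepLPC against 77.9 and 75.4 CPM in NPC_LPC (1.12, SE 0.36; DESeq2 adjusted p = 0.0483, range 0.0483 to 0.536). Met, the hepatocyte growth factor receptor that associates with B-type plexins, was at 270 and 166 CPM against 203 and 278 CPM, and the groups overlapped. Of 24 tested Eph and ephrin partners edgeR called 0, and DESeq2 called 2 lower (6.24% of all). At an unadjusted p under 0.05 by edgeR, 2 were higher and 3 lower, against 10.4% and 11.5% of all tested genes. Their median log2 fold change was -0.18. The kinase Fyn, which acts downstream of ephrins, was at 20.9 and 30.7 CPM in HepLPC against 63.2 and 63.9 CPM in NPC_LPC, which gave a log2 fold change of -1.30 (SE 0.29; DESeq2 adjusted p = 0.00511, range 0.00511 to 0.244). Arhgef19 was at 3.054 and 6.98 against 16.6 and 16.7 CPM. Ngef, the ephexin that acts below EphA4, was at 3.11 and 3.55 CPM against 0.823 and 0.149 CPM.

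Of 14 Slit and Robo partners, 12 had fold changes below 0 (median -0.47), against 50.2% of all tested genes. EdgeR called 0, with 1 higher and 5 lower at an unadjusted p under 0.05 (10.4% and 11.5% of all tested genes), and DESeq2 called 3 lower (6.24% of all). Gpc1, a heparan sulfate proteoglycan that binds Slit, was at 19.2 and 24.6 CPM in HepLPC against 86.0 and 81.3 CPM in NPC_LPC, which gave a log2 fold change of -1.94 (SE 0.26; edgeR adjusted p = 0.057, DESeq2 adjusted p = 2.87e-07, range 2.87e-07 to 0.19). Dag1, the dystroglycan gene, was at 164 and 197 against 397 and 318 CPM. In both of these genes the groups were separate.

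Netrins are another family of guidance cues, and the list named for them also holds their receptors and the Rgm, Draxin and Flrt genes. Of 11 tested genes of the netrin list, 9 had fold changes below 0 (median -0.61), against 50.2% of all tested genes. EdgeR called 0, with 4 lower at an unadjusted p under 0.05 (11.5% of all), and DESeq2 called 3 lower (6.24% of all). Ntn1, netrin-1, was at 6.78 and 2.76 CPM in HepLPC against 22.8 and 42.3 CPM in NPC_LPC, which gave a log2 fold change of -2.77 (SE 0.58; edgeR adjusted p = 0.0882, DESeq2 adjusted p = 6.57e-05, range 6.57e-05 to 0.227). Flrt2, a ligand of Unc5 receptors, was at 6.39 and 1.97 against 25.3 and 50.3 CPM. Ntng2 had 1 and 3 counts in HepLPC and was at 4.22 and 3.17 CPM in NPC_LPC. The receptor Unc5b was abundant in both, at 369 and 381 CPM and at 492 and 655 CPM, while the receptor Dcc had no count.

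The 58 genes lie on 19 chromosomes, with at most 7 on any. Taking the median log2 fold change of each chromosome out of the fit left the median of the tested members at -0.66, and edgeR still called 0 of 43, where it called 0.503% of all tested genes. Some members share exons with another gene in the GENCODE M21 annotation. Efna3 shares 14.1% of its exonic bases with Gm15998, Plxna1 10.7% with Gm26811 and Efna4 10.5% with 4731419I09Rik. Sema4c shares 7.27% with D430040D24Rik and Plxnb1 2.68% with Gm7628. Each of these other genes lies on the opposite strand. Sema4a shares 1.35% with Mir7011 on its own strand. The library kit keeps strand but the strand setting of the counting is not given in the sources used here, so reads of such pairs may not have been told apart. Sema4g, Sema4f, Sema3f, Robo1, Slit2, Ephb6, Epha4 and Epha7 share none.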

How the data were processed

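RNA-seq tables of 4 libraries were used, 1 table per library, with a count and an FPKM per gene symbol. Trimmomatic, HISAT2, Cufflinks, HTSeq, DESeq and the build mm10 (GRCm38) are listed, per the submitters' processing notes. Their versions, the annotation and the strand setting of counting: not given in the sources used here. The deposited counts are whole read counts per gene, per the file headers. The deposited FPKM are fragments scaled by transcript length and library size, per the file headers; 1 header spells the unit fpmk. The tables held 21878 rows, 6043 without a count in any library.

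Counts were fitted over all genes with edgeR 4.0.16 (R 4.3.3), TMM factors, filterByExpr (12332 genes) and the quasi-likelihood test, group as the only term, Benjamini-Hochberg adjustment and a threshold of 0.05. P-values are two-sided; log2 fold changes divide HepLPC by NPC_LPC, their SE comes from the F statistic and folds are ratios of mean CPM. DESeq2 1.42.0, limma-voom and limma 3.58.1 on log2 FPKM with pseudocounts of 0.1 and 1 were alternatives, with other scaling, filters, a replicate block, each library left out and chromosome medians (at least 10 CPM) in the offset. The fits were tested on simulated data. With 2 against 2 an exact permutation test cannot go below p = 0.333 and was not run. FPKM served for levels between genes. Positions and start windows are RefSeq's on GRCm38.p6; all 58 members matched by symbol.

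The members and lists were chosen with earlier results of these data known. Members given in full are those past the threshold (0), up to 10 on each side with the largest fold changes among those with a mean of at least 5 CPM and separate groups, and the 2 of each of 8 families with the highest mean FPKM. Partner genes are those past the threshold and the 3 of each list with the smallest p; 1 of these is not reported here. Other genes were named after their values were seen.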

Additional observations from a re-analysis of the deposited data

How the results depend on the processing

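The count of genes called over all genes, 53, moved with the test: 593 without a filter on low counts, 1521 by DESeq2, 5 by limma-voom, 136 with the replicate block, 111 on log2(FPKM + 1) with a mean FPKM of at least 0.5 and 0 on log2(FPKM + 1) over every row above 0. Leaving out 1 library gave 0 to 377. Without a filter, 2 guidance genes of 52 were called higher and 2 lower, where 593 of 15835 genes were called. DESeq2 called 2 higher and 7 lower, against 5.35% and 6.24% of all genes with an adjusted p. The other alternatives that used every library, the replicate block among them, called 0 members. Of the 70 tested partner genes, edgeR called 1, where it called 0.43% of all tested genes. Without a filter it called 5 of 77, where it called 593 of 15835 genes. DESeq2 called 11 of the 77 to which it gave a p-value, where it called 1521 of 15835 such genes. Limma-voom and log2(FPKM + 1) over every row gave 0. The deviations of same-numbered replicates from their group means had a correlation of -0.034 over 12332 genes. Whether same-numbered replicates share a mouse, day or batch is not labelled, and this value cannot settle it. The 24 named members had 356 values under alternatives, of which 9 changed sign, all in 5 genes with fitted values of 0.02 to 0.21. Leaving out 1 library gave -0.53 to 0.68 for Efna1, -0.14 to 0.40 for Efna4, -0.13 to 0.21 for Efnb2 (-0.042 without NPC_LPC replicate 1), -0.25 to 0.38 for Ephb4 (-0.074 without HepLPC replicate 2) and -0.026 to 0.43 for Plxnb2; with chromosome medians in the offset Ephb4 was at -0.13 and Plxnb2 at -0.47. The cause of these changes was not tested. Leaving out a library leaves 1 sample in a group, assumed to vary like the other group. Members under about 5 counts a library cannot be ordered at this depth.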
